A study of Mus musculus with 8 samples.

Results

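The genes described here are 39 interferon response and antigen presentation genes, taken from a list of symbols and found as 39 single rows among the 24883 rows of the deposited expression table. Type I interferons act through the receptor chains IFNAR1 and IFNAR2, which activate STAT proteins. STAT2 takes part with IRF9 in a complex that binds interferon-stimulated response elements (ISREs) and switches on antiviral genes. Interferon gamma acts through other receptors and raises IRF1, immune GTPases and the proteins that cut, transport and display peptides on MHC molecules. In the brain, microglia, endothelial cells and astrocytes are among the cells known to raise such genes when stimulated by interferon.

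The samples were 8 pieces of visual cortex from C57BL/6J mice, each read by RNA sequencing. All samples had received an injection of a locked nucleic acid (LNA) oligonucleotide into the cortex on postnatal day 122 and were taken 7 days later. In the 4 scrambled samples the oligonucleotide had a sequence with no stated target, and in the 4 anti-miR-29a samples it was complementary to miR-29a and so blocks this microRNA. Every sample was injected and no uninjected cortex was analysed here, so what the injection itself adds to the levels of either group cannot be told apart. The labels do not say that each sample is a different animal; the p-values therefore reflect only how far these samples differ, and some of that may be technical.

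Values are in FPKM, a fragment count scaled by transcript length and library size. Each library listed 12538 to 12769 rows at 1 FPKM or more, and read totals were not used here, so intervals from counting error cannot be given. Neuronal RNA was seen in every library. The 8 cortical neuron genes summed to 3480 to 3720 FPKM in scrambled and 3410 to 3700 FPKM in anti-miR-29a libraries. No other tissue was compared, so these sums do not tell visual cortex from other neuronal tissue. A gene is called low when its 8 libraries average under 0.5 FPKM. None of the 39 members was low, and all were therefore among the 13912 rows tested. In bulk tissue, fewer cells of a type and less RNA per cell cannot be told apart.

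The mature miR-29a that the treatment blocks is shown first, with its seed (bases 2 to 8) in capitals. The complement of this seed is the match that was searched for. The stretches of 3′ untranslated region under it are the seed matches found among the members, with the match TGGTGCT in capitals. They are written as DNA in the direction of the transcript. The microRNA sequence is from RefSeq (GRCm38.p6, chr6:31062673-31062694, minus strand), and the untranslated regions are the longest ones that GENCODE M21 annotates for protein-coding transcripts of each gene.
mmu-miR-29a-3p: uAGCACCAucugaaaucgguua
Irf1: aagctgccatgTGGTGCTgaaaattgaat
Rsad2: ggggtttttttTGGTGCTtatattaatac
Trim25: tatcatctcttTGGTGCTggggtctgaat

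These were the only matches in the 39 members. A seed match was held by 3 of 39 members (7.69%), compared with 2066 of 13108 tested genes that were searched (15.8%). The untranslated regions of the members were also shorter, with a median of 515 nt against 1230 nt, so fewer matches could occur in them. Among genes upstream of the members, a match was present in Ifngr2, a chain of the interferon gamma receptor, and in Ifng, Tbx21 and Eomes, which have been reported as miR-29 targets in lymphocytes. Of these genes Ifng, Tbx21 and Eomes were low in this cortex, with means of 0, 0.0665 and 0.0502 FPKM over the 8 libraries. No match was present in Ifnar1, another reported target, or in Ifnar2 or Ifngr1. Only TGGTGCT in the longest annotated region of each gene was searched for, so other kinds of site were not looked at. A match is a description of the sequence and does not show that the microRNA acts there.

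Some of the members held a promoter motif that was not used to choose them. RefSeq promoters, stretches of 300 bases that end 50 bases after a gene's start, were at hand for 32 of the 39. The ISRE-type motif GAAANNGAAA, searched on both strands, was present in 15 of these 32 (46.9%) and in 1079 of all 27025 genes with a promoter (3.99%). The motif TTCNNNGAA, the form known from genes that respond to interferon gamma, was present in 8 of 32 (25%) and in 2582 of 27025 genes (9.55%). This motif reads the same on both strands. Bst2, Eif2ak2, Ifitm3 and Igtp held both. The other 17 of the 32 had no ISRE-type match. Printed here are the stretches around the ISRE-type matches of 8 of the 15 members. They include antiviral effectors, GTPases, a transcription factor and a class I chain. A match does not show that the motif acts in this cortex. Capitals mark each match, and a match on the other strand reads as its reverse complement.
Isg15: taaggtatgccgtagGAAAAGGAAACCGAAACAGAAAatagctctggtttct
Ifit1: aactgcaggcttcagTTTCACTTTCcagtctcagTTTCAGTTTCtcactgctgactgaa
Ifit3: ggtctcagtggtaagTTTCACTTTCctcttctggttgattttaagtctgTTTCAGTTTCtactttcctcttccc
Ifitm3: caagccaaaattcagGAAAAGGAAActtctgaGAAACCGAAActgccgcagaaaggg
Gbp2: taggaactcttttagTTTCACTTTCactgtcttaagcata
Irgm1: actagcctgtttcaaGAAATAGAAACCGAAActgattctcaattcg
Stat2: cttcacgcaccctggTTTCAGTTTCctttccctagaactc
B2m: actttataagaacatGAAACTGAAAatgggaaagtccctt

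These stretches lie, in GRCm38.p6, at chr4:156200860-156200911 on the minus strand for Isg15, chr19:34640770-34640828 for Ifit1, chr19:34583358-34583431 for Ifit3, chr7:141010701-141010757 on the minus strand for Ifitm3, chr3:142620589-142620628 for Gbp2, chr11:48871420-48871465 on the minus strand for Irgm1, chr10:128270261-128270300 for Stat2 and chr2:122147533-122147572 for B2m. The first match began 78 bases before the start of Isg15, 104 before that of Ifit1, 156 before that of Ifit3 and 139 before that of B2m. In Isg15, 3 matches overlap in 1 run. Each stretch is given in the direction of its gene.

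The levels of the members spanned a wide range. B2m, the light chain that every class I molecule shares, was the highest by far, with 305 ± 83.0 FPKM in scrambled and 327 ± 27.4 FPKM in anti-miR-29a libraries (SD, n = 4 per group, as in all values given with ±). Of the 39 members 11 had a mean of at least 10 FPKM, 25 lay between 1 and 10 FPKM, and 3 lay under 1 FPKM, namely Rsad2, Usp18 and Parp14. After B2m came the class I heavy chain gene H2-D1, the effector genes Ifitm3 and Lgals3bp, then H2-K1 and Ifitm2. The levels of H2-D1 and Ifitm3 overlapped in the libraries, and so did those of H2-K1 and Ifitm2.

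The largest feature of these genes was a difference between scrambled libraries. Scrambled replicate 1 had the highest value of the 4 scrambled libraries in 38 of 39 members, whereas it was the highest of the 4 in 22.8% of all tested rows. It was the highest of all 8 libraries in 29 of 39 members (74.4%), compared with 8.66% of all tested rows. Scrambled replicate 4 stood at the other end, with the lowest value of the 8 libraries in 20 of 39 members (51.3%) against 10.4% of tested rows. As a median over the members, log2(FPKM + 0.1) in scrambled replicates 1 to 4 stood at 0.60, -0.17, -0.041 and -0.39 from the mean of the 8 libraries. The anti-miR-29a libraries lay between these extremes, at 0.13, 0.092, -0.11 and 0.032. Over all tested rows the same medians ran only from -0.017 to 0.057.

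**Figure D1:**
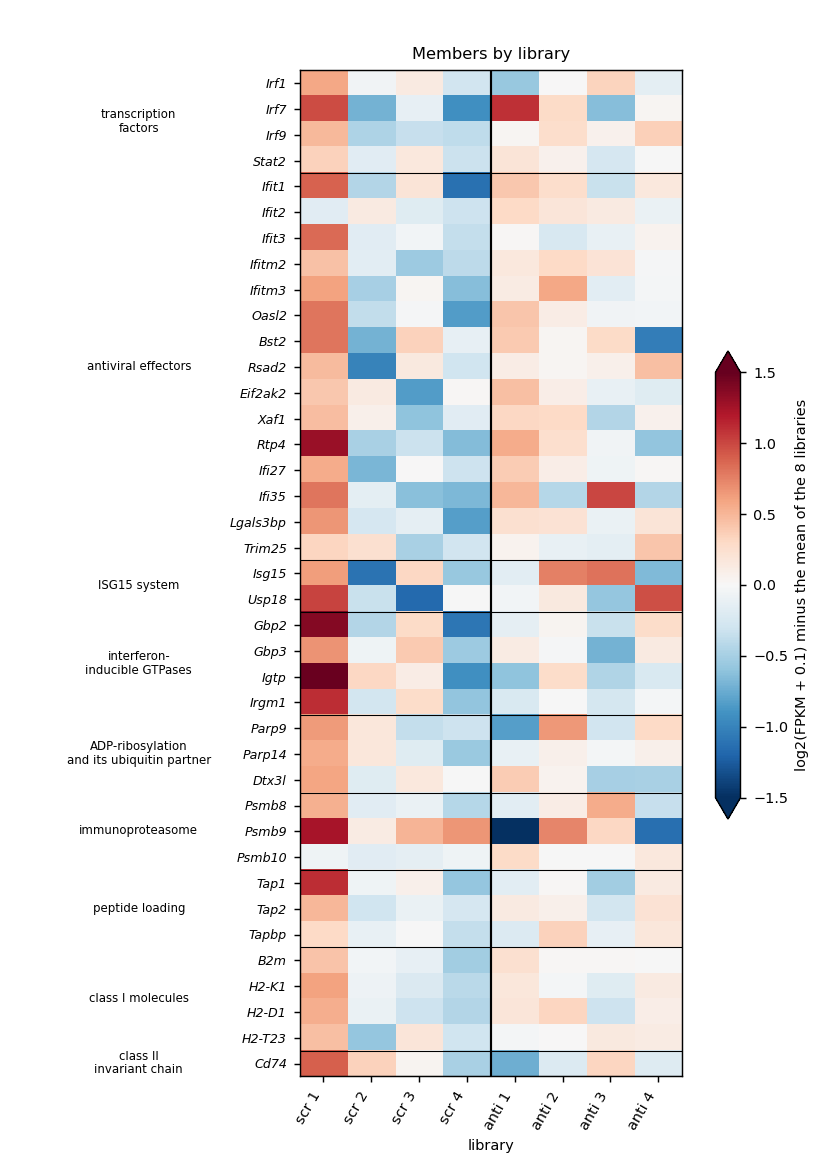
Each row is a member, grouped by role, and each column a library (scr, scrambled; anti, anti-miR-29a); the colour is log2(FPKM + 0.1) minus the mean of the 8 libraries for that gene, with values beyond 1.5 shown at the end of the scale. The first column is red in nearly all rows, scrambled replicate 1 being the highest of the scrambled libraries in 38 of 39 members, while scrambled replicate 4 is mostly blue.

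The ratio of scrambled replicate 1 to the mean of the other 3 scrambled libraries had a median of 1.79 over the members, from 0.953 in Ifit2 to 3.55 in Rtp4, and a median of 0.986 over all tested rows. It was above 1.5 in 34 of 39 members and in 5.11% of tested rows. The ratio was 3.34 for Gbp2, 3.24 for Usp18, 2.99 for Igtp, 2.98 for Irf7 and 2.49 for Tap1. Members with an ISRE-type match in the promoter had a median ratio of 1.88, compared with 1.75 for the 17 that lacked it, so the difference between libraries was seen on either side of this motif.

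Across the groups, no member passed the test. The 2 groups of 4 were compared with limma on log2(FPKM + 0.1), with Benjamini-Hochberg adjustment over all 13912 tested rows and a threshold of 0.05. At that threshold 0 of 39 members were called, against 2 of all tested rows (0.0144%), and the smallest adjusted p of a member was 0.371, for Psmb10. At an unadjusted p under 0.05 limma counted 1 member higher, Psmb10 (2.56% of members, 7.54% of tested rows), and 0 members lower (3.18% of tested rows). The groups of libraries did not overlap in 1 member that was higher, again Psmb10 (4.02% of tested rows), and in 0 that were lower (2.29% of tested rows). The log2 difference was positive in 27 of 39 members (69.2%) and in 56.6% of tested rows, with a median of 0.11 against 0.026. These shares are near or below those of all genes, apart from the share of positive differences, which was not tested.

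That comparison depended on the libraries at either end. Without scrambled replicate 1, a setting that was part of the rule for these genes, the median of the members was 0.27 (0.025 over all tested rows) and 33 of 39 differences were positive (55.8% of tested rows). Limma still called 0 members after adjustment (0.00719% of tested rows), with a smallest adjusted p of 0.234 for Ifitm2. At an unadjusted p under 0.05 it counted 10 members higher (25.6%, against 7.32% of tested rows) and 0 lower (3.17% of tested rows). The 10 were Irf9, Ifitm2, Ifitm3, Oasl2, Ifi27, Lgals3bp, Psmb10, B2m, H2-K1 and H2-D1. In 5 of them, namely Irf9, Ifitm2, Lgals3bp, Psmb10 and B2m, all 4 anti-miR-29a libraries lay above the remaining 3 scrambled ones (12.8%, against 6.21% of tested rows), and 0 members were lower without overlap (4.13% of tested rows). Leaving out a library that is the highest of its group in 38 of 39 members lowers the scrambled mean of these members by construction. Without scrambled replicate 4, which most often had the lowest value, the median was instead -0.020 (0.026 over all tested rows) and 18 of 39 differences were positive (46.2%, against 56.7% of tested rows). At an unadjusted p under 0.05 limma then counted 1 member higher, Psmb10 (2.56%, against 6.61% of tested rows), and 2 lower, Igtp and Cd74 (5.13%, against 2.31% of tested rows).

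**Figure D2:**
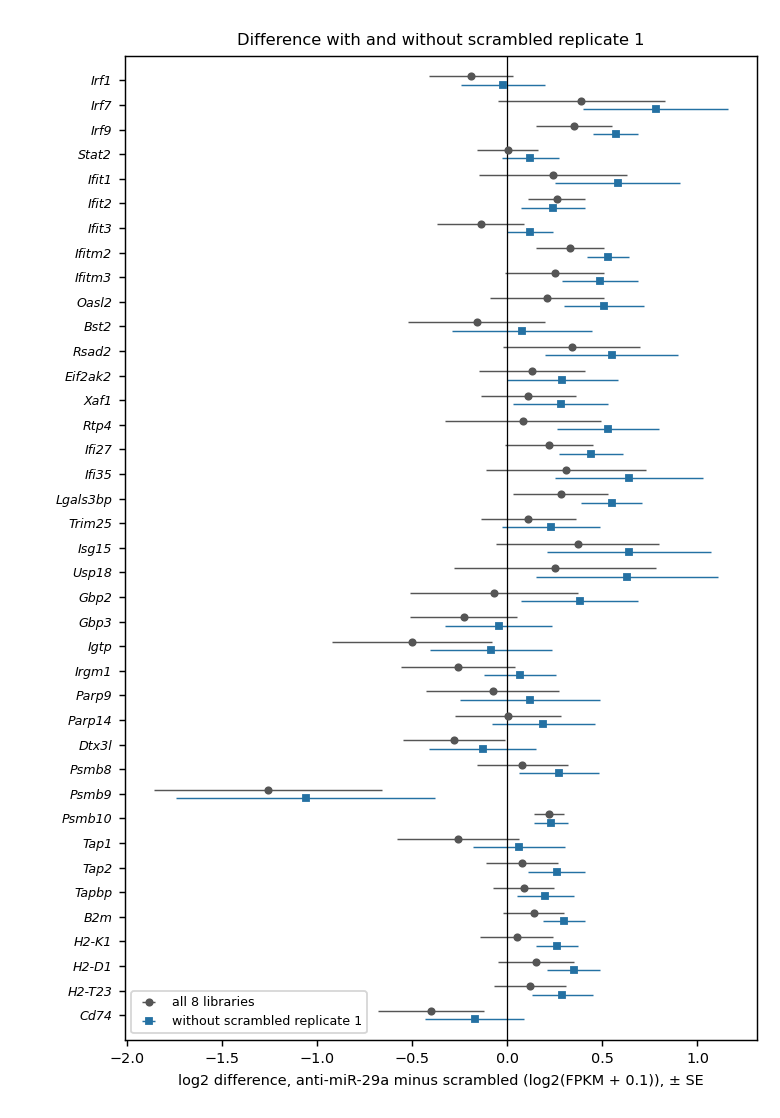
Points give the log2 difference of each member, anti-miR-29a minus scrambled on log2(FPKM + 0.1), with its standard error, over all 8 libraries (circles) and without scrambled replicate 1 (squares). The squares lie to the right of the circles for nearly all members, with medians of 0.11 and 0.27, and no difference passed after adjustment in either setting.

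Of the 4 transcription factors, 3 were highest in scrambled replicate 1, and none passed the test. Irf9, the DNA-binding partner of STAT2, read 6.01, 3.05, 3.31 and 3.25 FPKM in scrambled replicates 1 to 4 and 4.32, 5.10, 4.45 and 5.46 FPKM in anti-miR-29a replicates 1 to 4. Scrambled replicate 1 was above every other library, and the other 3 scrambled libraries were below all anti-miR-29a libraries. The log2 difference was 0.35 (standard error 0.20; limma, adjusted p = 0.567) and 0.57 with a standard error of 0.12 without scrambled replicate 1 (limma, adjusted p = 0.246). Irf7, the factor that amplifies type I interferon production, read 5.85, 1.74, 2.66 and 1.49 FPKM in scrambled and 6.33, 3.59, 1.83 and 2.98 FPKM in anti-miR-29a libraries. Its groups overlapped, since 1 library of each group lay near 6 FPKM and the others under 4 FPKM. Stat2 had a difference of 0.0020 log2 units and Irf1, the factor most tied to interferon gamma, one of -0.19. Irf1 holds the seed match printed above, and its scrambled and anti-miR-29a means were 3.75 ± 1.03 and 3.28 ± 0.847 FPKM.

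Antiviral effectors made up 15 of the members. None passed. Over all 8 libraries 13 of the 15 had a positive difference, as did 56.6% of all tested rows, and the median of the 15 was 0.22. Some of these signs, those of Ifit1 and Oasl2 among them, changed when a library was left out. Ifitm2, a membrane protein that hinders virus entry, read 30.3, 20, 15.2 and 16.9 FPKM in scrambled and 24.8, 27.4, 25.7 and 22 FPKM in anti-miR-29a libraries. The anti-miR-29a libraries were close to each other and lay between scrambled replicate 1 and the rest. Without scrambled replicate 1 the difference was 0.53 log2 units (standard error 0.11; limma, adjusted p = 0.234), compared with 0.33 (standard error 0.18) over all libraries (limma, adjusted p = 0.552). Its relative Ifitm3 read 47.4, 22, 31.9 and 19.9 FPKM in scrambled and 33.8, 46.7, 27.8 and 30.4 FPKM in anti-miR-29a libraries, and the groups overlapped. Lgals3bp, a secreted glycoprotein gene, read 42.5, 22.6, 24.5 and 15.1 FPKM and then 31.8, 31.3, 25.2 and 30.9 FPKM, so that again 1 scrambled library lay above all anti-miR-29a libraries and 3 below.

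Members of the Ifit family, which bind foreign RNA or block its translation, did not share 1 pattern. Ifit3 read 12.3, 6.03, 6.6 and 5.27 FPKM in scrambled and 6.86, 5.71, 6.30 and 7.05 FPKM in anti-miR-29a libraries, so scrambled replicate 1 alone stood apart from 7 similar libraries. Ifit2 was the exception among all members, with 2.07 FPKM in scrambled replicate 1 and 2.59, 2.06 and 1.87 FPKM in the other scrambled libraries. Its anti-miR-29a values were 2.90, 2.67, 2.59 and 2.17 FPKM, a difference of 0.26 log2 units (limma, adjusted p = 0.581). Ifit1 lay lower, from 0.590 to 2.67 FPKM in scrambled and from 1.09 to 1.88 FPKM in anti-miR-29a libraries. Rtp4, Oasl2 and Bst2, the last coding for tetherin, which holds budding virus at the cell surface, had ratios of scrambled replicate 1 to the other scrambled libraries of 3.55, 2.30 and 1.88. Eif2ak2, the kinase that halts translation on double-stranded RNA, differed by 0.13 log2 units and Rsad2, which codes for viperin, by 0.34. Trim25 and Rsad2 are the other members with a seed match, and Trim25 differed by 0.11. The remaining effectors, Xaf1, Ifi27 and Ifi35, had differences of 0.11, 0.22 and 0.31, all with overlapping groups.

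Isg15, a ubiquitin-like protein gene, and Usp18, which removes ISG15 and dampens interferon signalling, were variable in both groups. Isg15 read 4.80, 1.37, 3.82 and 2.03 FPKM in scrambled and 2.74, 5.23, 5.46 and 1.91 FPKM in anti-miR-29a libraries. Values near 2 and near 5 FPKM occurred in either group. Usp18 lay near the floor, from 0.149 to 1.03 FPKM in scrambled and from 0.275 to 0.996 FPKM in anti-miR-29a libraries, and adding 0.1 before taking logs shrinks the differences of genes this low.

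**Figure D3:**
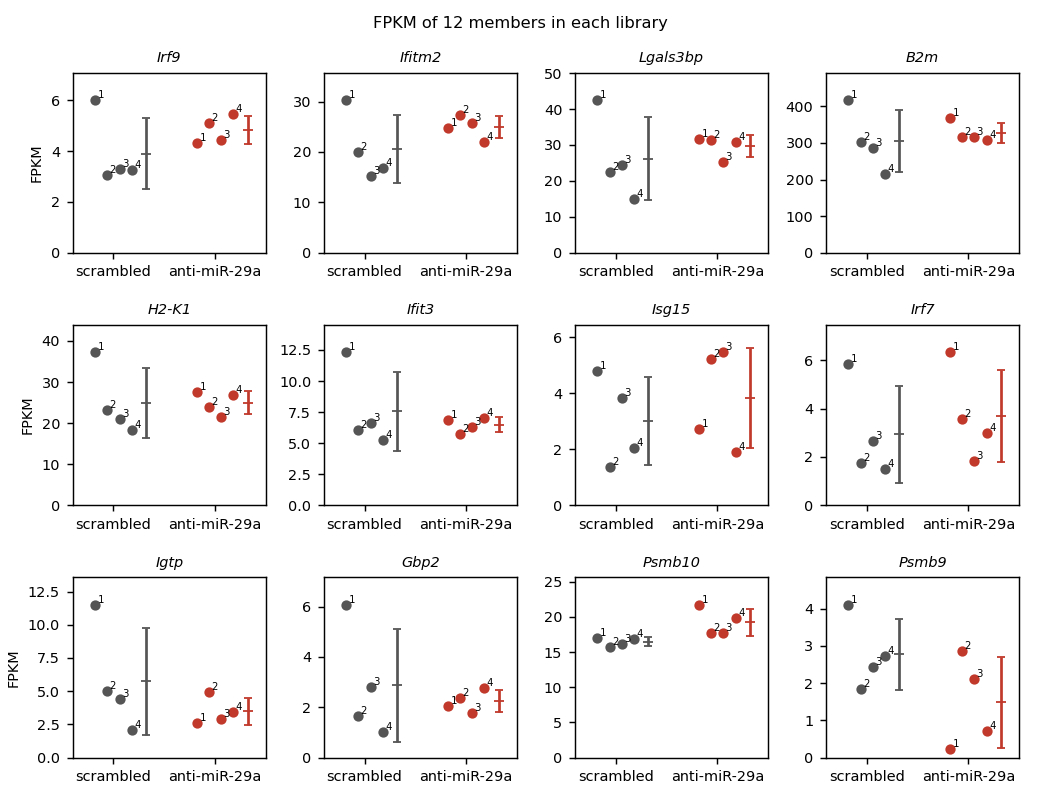
Points are FPKM in single libraries, numbered by replicate, for 12 members in scrambled (grey) and anti-miR-29a (red) samples, and the bar beside them is the mean ± SD (n = 4). Scrambled replicate 1 is the top point of the scrambled group in all 12, and in Irf9, Ifitm2, Lgals3bp and B2m the anti-miR-29a points lie between it and the other 3 scrambled points.

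The interferon-inducible GTPases, which attack the vacuoles of intracellular microbes and respond most to interferon gamma, stood furthest above the 8-library mean in scrambled replicate 1 among the role groups, by a median of 1.25 log2 units. Igtp read 11.5, 5.05, 4.40 and 2.10 FPKM in scrambled and 2.64, 4.93, 2.94 and 3.45 FPKM in anti-miR-29a libraries. Gbp2 read 6.07, 1.65, 2.79 and 1.02 FPKM and then 2.06, 2.35, 1.79 and 2.78 FPKM. Irgm1 and Gbp3 were also highest in scrambled replicate 1, at 13.3 and 5.02 FPKM. All 4 had a negative difference over the 8 libraries, from -0.50 for Igtp to -0.070 for Gbp2, and none passed. Without scrambled replicate 1 the 4 differences had a median of 0.0099, while that of the 15 antiviral effectors was 0.49. Whether these medians differ from each other was not tested.

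Parp9, Parp14 and Dtx3l, enzymes of ADP-ribosylation and a ubiquitin ligase that pairs with PARP9, differed by -0.077, 0.0027 and -0.28 log2 units. Parp9 and Dtx3l overlap on opposite strands of chromosome 16 (mm10, 35938470 to 35972605 and 35926511 to 35939151). The library kit does not mark strand, so reads from the overlap cannot be assigned to either.

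The immunoproteasome replaces the standard catalytic subunits so that cut peptides fit class I molecules better. Psmb10 had an SD of only 0.618 FPKM among scrambled libraries, with 17, 15.7, 16.2 and 16.9 FPKM in scrambled and 21.7, 17.7, 17.7 and 19.8 FPKM in anti-miR-29a libraries. Psmb10 alone among the members had its lowest anti-miR-29a value, 17.7 FPKM, above its highest scrambled value, 17 FPKM. That order was lost under median centring, quantile normalization and removal of a trend on transcript length and GC content. The log2 difference between the groups of Psmb10 was 0.22 (standard error 0.078, limma, adjusted p = 0.371). Psmb8 differed by 0.080 log2 units. Psmb9 went the other way, with 4.10, 1.85, 2.44 and 2.73 FPKM in scrambled and 0.229, 2.87, 2.12 and 0.718 FPKM in anti-miR-29a libraries. Anti-miR-29a replicates 1 and 4 stood far below the other 6 libraries, and the difference of -1.26 log2 units, the lowest of all members, had a standard error of 0.60 (limma, adjusted p = 0.490). Psmb9 overlaps Tap1 on the opposite strand of chromosome 17 (mm10, 34181987 to 34187764 and 34187553 to 34197225), and an FPKM of either may hold reads of the other.

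Set beside the standard subunits they replace, the inducible ones were a small part of the transcripts. Psmb8 made up 7.58% ± 2.29 of Psmb8 and Psmb5 together in the scrambled group, against 7.19% ± 1.92 with anti-miR-29a (exact two-sided permutation p = 0.743). Psmb9 made up 4.13% ± 1.36 and 2.06% ± 1.68 of its pair with Psmb6 (exact permutation p = 0.171), and Psmb10 21.1% ± 1.36 and 22% ± 2.46 of its pair with Psmb7 (exact permutation p = 0.514). The standard subunits themselves differed by 0.14 to 0.16 log2 units and did not pass. In scrambled replicate 1 the Psmb8 share was 10.9% and the Psmb9 share 6.15%, the highest of the 8 libraries for each, whereas the Psmb10 share was 20.2%, the lowest of the 4 scrambled libraries.

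Tap1 and Tap2, the chains of the peptide transporter, and Tapbp, which holds the transporter to class I molecules, differed by -0.26, 0.078 and 0.086 log2 units. Tap1 read 4.38, 1.89, 2.10 and 1.29 FPKM in scrambled and 1.77, 2.02, 1.35 and 2.19 FPKM in anti-miR-29a libraries. Scrambled replicate 1 was the only library above 3 FPKM.

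Class I molecules are carried by most cells and present peptides to cytotoxic T cells. B2m read 417, 302, 286 and 216 FPKM in scrambled and 368, 315, 316 and 309 FPKM in anti-miR-29a libraries. H2-K1 read 37.2, 23.1, 20.9 and 18.4 FPKM and then 27.5, 23.9, 21.4 and 26.8 FPKM. H2-D1 read 52.4, 33.5, 28.8 and 26.4 FPKM and then 40.6, 44.8, 28.9 and 38.2 FPKM. In these 3 genes scrambled replicate 1 was the highest and scrambled replicate 4 the lowest of all 8 libraries. The differences over all libraries were 0.14, 0.049 and 0.15 log2 units, and 0.12 for H2-T23, a non-classical class I gene. Without scrambled replicate 1 they were 0.30, 0.26, 0.35 and 0.29, with adjusted p of 0.415 to 0.543 (limma).

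Cd74, the gene of the invariant chain that guides class II molecules, read 28.8, 19.6, 15.9 and 11 FPKM in scrambled and 9.23, 13.3, 19.3 and 13.5 FPKM in anti-miR-29a libraries, a difference of -0.40 log2 units (limma, adjusted p = 0.647) that was still negative, at -0.17, without scrambled replicate 1. The class II chains H2-Aa, H2-Ab1 and H2-Eb1, which are not members, gave -0.34, -0.31 and -0.31 and then -0.029, -0.093 and -0.0093. Each of the 3 was highest in scrambled replicate 1.

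The rest of the pathway was read from lists of other genes. Of 13 interferon genes, 11 were listed at 0 in all 8 libraries, Ifnb1 and Ifng among them, and the sum over the list was at most 0.332 FPKM. Of 18 tested receptors, kinases, STATs and negative regulators none passed. At an unadjusted p under 0.05, 0 were higher and 0 lower (7.54% and 3.18% of all tested rows). Without scrambled replicate 1, 3 were higher and 0 lower (7.32% and 3.17% of all tested rows). Ifnar1 averaged 6.15 FPKM over the scrambled and 7.24 FPKM over the anti-miR-29a libraries, a difference of 0.24 log2 units (limma, adjusted p = 0.516). Of 18 tested nucleic acid sensing genes none passed, and the median was -0.053 over all libraries and 0.18 without scrambled replicate 1.

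Over other interferon-stimulated genes, scrambled replicates 1 and 4 were again the highest and the lowest library by median, while the libraries between them stood in another order than for the members. Of 65 such genes in the deposited data, 47 were tested. None passed, and the median was -0.018. At an unadjusted p under 0.05, 1 was higher (7.54% of all tested rows) and 2 were lower (3.18% of all tested rows). The highest value of 25 of the 47 was in scrambled replicate 1, as it was in 8.66% of all tested rows. The higher gene was Ifi30, a lysosomal reductase gene of antigen processing. It read 9.15, 5.93, 5.29 and 4.37 FPKM in scrambled and 11, 13.7, 9.70 and 9.31 FPKM in anti-miR-29a libraries. It was higher without overlap, as were 4.02% of all tested rows, and differed by 0.85 log2 units (limma, adjusted p = 0.232). The lower genes were Gbp5 and Tgtp2, both GTPases, at -0.72 and -0.89 log2 units (limma, adjusted p = 0.385 and 0.423). Tgtp2 was lower without overlap, as were 2.29% of all tested rows, while the groups overlapped in Gbp5. Without scrambled replicate 1 the median of the list was 0.13, with 9 of 47 genes higher (7.32% of all tested rows) and 0 lower (3.17% of all tested rows) at an unadjusted p under 0.05. Of 28 tested other antigen presentation genes none passed, and the median was -0.016. At an unadjusted p under 0.05, 2 were higher (7.54% of all tested rows) and 0 lower (3.18% of all tested rows). Without scrambled replicate 1 the median was 0.062, with 4 higher (7.32% of all tested rows) and 0 lower (3.17% of all tested rows). The 2 over all libraries were Calr, a chaperone of class I folding, and Ctsl, a lysosomal protease gene, at 0.18 and 0.27 log2 units. Nlrc5, the activator of class I genes, was low, at 0.870, 0.479, 0.405 and 0.214 FPKM in scrambled and 0.182 to 0.294 FPKM in anti-miR-29a libraries.

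**Figure D4:**
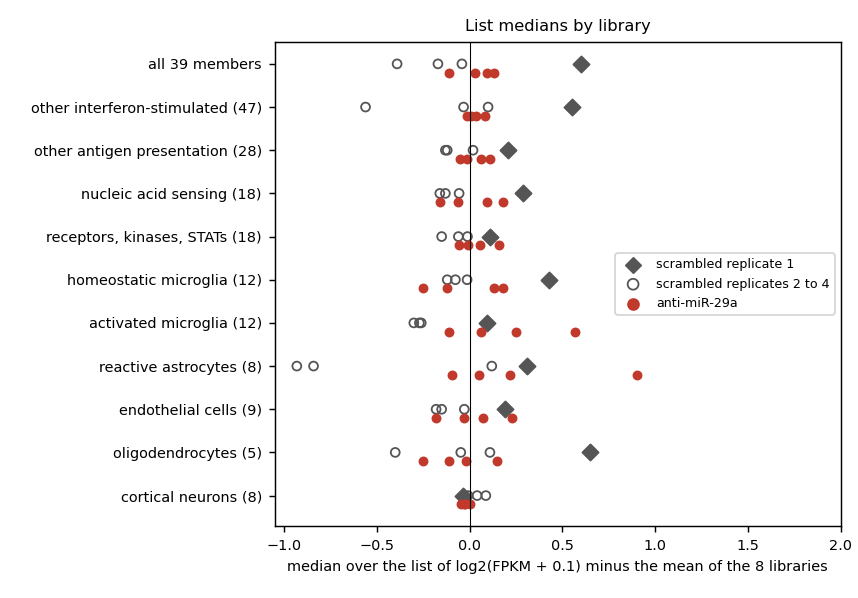
Points are medians over a list, in single libraries, of log2(FPKM + 0.1) minus the mean of the 8 libraries for each gene; diamonds are scrambled replicate 1, open circles scrambled replicates 2 to 4 and red points the anti-miR-29a libraries, with the number of tested genes in brackets. Scrambled replicate 1 is the highest library for the members (0.60), other interferon-stimulated genes (0.55), oligodendrocyte genes (0.65) and homeostatic microglia genes (0.43), while cortical neuron genes differ little.

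Markers of cell types moved with these genes in part, and their part in the results was not tested. The 5 oligodendrocyte genes were all highest in scrambled replicate 1, where they summed to 1570 FPKM, against 758 to 1100 FPKM in the other scrambled and 847 to 1130 FPKM in anti-miR-29a libraries. Homeostatic microglia genes summed to 202 FPKM there, against 146 to 153 and 134 to 182 FPKM, and 7 of 12 were highest in it. Of all tested rows, 8.66% were highest in scrambled replicate 1. Reactive astrocyte genes were lowest in scrambled replicates 2 and 4, at 154 and 151 FPKM in sum, and highest in anti-miR-29a replicate 2, at 525 FPKM. Activated microglia genes summed to 147 FPKM in scrambled replicate 1, 101 to 105 in the other scrambled and 109 to 177 in anti-miR-29a libraries. Lymphocyte markers had small sums. In scrambled and then anti-miR-29a libraries, 10 T cell genes summed to 1.07 to 2.15 and 1.59 to 1.86 FPKM. Sums of 7 NK cell genes were 0 to 0.911 and 0.179 to 0.856 FPKM, and those of 5 B cell genes 0.702 to 1.87 and 1.16 to 1.91 FPKM. Of these genes only Cd4 and Cd79a were not low, with means of 0.546 and 0.697 FPKM. Endothelial genes summed to 89.0 to 119 FPKM in scrambled and 104 to 118 FPKM in anti-miR-29a libraries. General astrocyte genes summed to 717 to 753 and 667 to 799 FPKM, and fibroblast genes to 328 to 516 and 479 to 738 FPKM. Ptgds alone read 307 to 477 and 449 to 686 FPKM and made up most of the fibroblast sums. Among marker lists with 5 or more tested genes, median log2 differences over all libraries were 0.34 for activated microglia, 0.5 for reactive astrocytes and 0.61 for fibroblasts. They were -0.06 for homeostatic microglia, -0.0022 for endothelial cells, -0.0028 for general astrocytes, -0.18 for oligodendrocytes and -0.036 for neurons. The members had 0.11. No gene of these lists passed the adjusted threshold. Monocyte and neutrophil genes summed to 6.08 to 11.7 and 7.26 to 11 FPKM, dendritic cell genes to 4.32 to 5.60 and 3.84 to 6.53 FPKM, and border macrophage genes to 3.09 to 4.22 and 1.44 to 4.71 FPKM. Prf1, a defining gene of cytotoxic cells, was the only NK cell gene listed at 0 in all 8 libraries.

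Some rows may share reads with other genes. In the longest annotated transcript, 31.7% of the 100-base windows of Ifit3 also occur in Ifit3b, 34.9% of those of Ifitm2 in Gm45717, a transcript that overlaps it on the same strand, and 11.2% of those of Rtp4 in Gm45338. For Igtp, H2-D1, H2-T23 and Ifit1 the share was 3.29% to 5.67%. How the authors' quantification divided such reads is not given in the sources used here, so levels of these members are uncertain to that extent. Exons of 19 of the 39 members overlap another annotated gene.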

How the data were processed

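RNA sequencing of 8 visual cortex samples, 4 scrambled and 4 anti-miR-29a, was deposited by the authors as 1 table of FPKM values per gene. The submitters' processing notes name CASAVA 1.8.2, Bowtie, Cuffnorm and the mm10 build; the scaling of FPKM between libraries and the annotation are not stated there or in the labels. Read depth is unknown, and no counts were inferred.

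The members and gene lists were chosen with earlier results of these data known. Rows with a mean of at least 0.5 FPKM were tested with limma 3.58.1 (R 4.3.3) on log2(FPKM + 0.1), with a mean-variance trend and Benjamini-Hochberg adjustment over 13912 rows; this understates the change of low genes. All members are named; other genes are those with the smallest p in their list or with a set role in the pathway. Alternatives changed the pseudocount, filter, scaling, weights, replicate block and libraries. Annotation was GENCODE M21 and promoters RefSeq GRCm38.p6. Over all tested rows, same-numbered samples showed no shared deviation, which does not exclude a pairing. Some genes of the lists are not reported here.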

Additional observations from a re-analysis of the deposited data

Results flagged for a closer look

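In groups of 4 libraries, 4 of 80 groups held a library whose gap to the nearest other library was large for the range of its group by Dixon's criterion. Chance flags about 1 in 20 groups when the groups are independent and their values normally distributed, which is also the share seen here. The groups here share the same libraries and are not independent, so the comparison is only a rough guide. Irf9 was set apart by scrambled replicate 1, at 6.01 FPKM, and Rtp4 by the same library, at 5.90 FPKM. Lgals3bp was set apart by anti-miR-29a replicate 3, at 25.2 FPKM, below the other 3 of its group, and B2m by anti-miR-29a replicate 1, at 368.0 FPKM, above the other 3.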

How the results depend on the processing

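No member passed the adjusted threshold of limma and none was lower without overlap under any alternative that was run. The number of members higher at an unadjusted p under 0.05, 1 over all libraries, was 0 under quantile normalization, median centring and removal of a trend on length and GC content, and 1 to 10 when each library was left out in turn. The number lower was 1 (Psmb9) under quantile normalization and with sample weights, and 0 to 2 with a library left out. The number higher without overlap was 0 under quantile normalization, median centring and removal of the length and GC trend, and 1 to 5 with a library left out. The median of the members ran from -0.020 to 0.27 with a library left out and from 0.052 to 0.12 under the other settings. The median of other interferon-stimulated genes ran from -0.095 to 0.13 with a library left out, and that of other antigen presentation genes from -0.042 to 0.062 and was 0.11 with a filter at 5 FPKM. The cause was not tested.

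Single log2 differences that changed sign were, with the length and GC trend removed, Stat2 -0.011 and H2-K1 -0.028; under median centring Stat2 -0.027 and Parp14 -0.027; with a pseudocount of 1 Stat2 -4.1e-06 and Parp14 -0.013; under quantile normalization Stat2 -0.033 and Parp14 -0.014; and with sample weights Gbp2 0.058 and Parp9 0.051. With each library left out in turn, 21 members changed sign, with ranges of Stat2 -0.11 to 0.12, Ifit1 -0.093 to 0.58, Ifit3 -0.29 to 0.12, Oasl2 -0.033 to 0.51, Bst2 -0.43 to 0.16, Eif2ak2 -0.12 to 0.29, Xaf1 -0.07 to 0.28, Rtp4 -0.12 to 0.53, Trim25 -0.04 to 0.23, Usp18 -0.097 to 0.63, Gbp2 -0.44 to 0.38. The other ranges were Irgm1 -0.5 to 0.066, Parp9 -0.31 to 0.19, Parp14 -0.18 to 0.19, Psmb8 -0.091 to 0.27, Tap1 -0.5 to 0.061, Tap2 -0.009 to 0.26, Tapbp -0.02 to 0.2, B2m -0.016 to 0.3, H2-K1 -0.078 to 0.26 and H2-T23 -0.046 to 0.29.

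With the replicate number as a block, 1 member was higher and 0 lower at an unadjusted p under 0.05, the median was 0.11 and the smallest adjusted p was 0.362 (limma). Over all tested rows, deviations of same-numbered samples correlated at -0.0856, 0.0143, -0.106 and -0.0972, so no pairing by number was seen. Such correlations cannot exclude a pairing, and the labels name none.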
